A study of Mus musculus with 4 samples.

Results

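The genes described here are those that encode the proteins of the cytosolic ribosome. They were taken from the gene count table as protein-coding rows whose names begin with Rpl or Rps and a digit, without the Rps6k kinases and without names that carry the pseudogene mark -ps. This name rule gave 82 of 54532 rows. Of these members, 33 carry names of the small (40S) subunit and 49 names of the large (60S) subunit, and 80 had enough counts to be tested among 14256 tested genes. The RNA came from alveolar macrophages (AMs), which live in the airspace of the lung, purified from female wild-type mice on a BALB/c background, for which the methods give an age of 8 to 10 weeks. The control group holds 2 libraries of mice without a tumor, and the tumor group 2 libraries of mice that had received 4T1 cells 2 weeks before. The 4T1 line is a mouse mammary carcinoma that is placed in the mammary fat pad and spreads to the lung on its own. The comparison asks how AMs differ at a stage before visible metastases. The methods say only that the cells sent for sequencing were purified. Where the study describes isolated AMs for staining it defines them as CD45+ CD11b- CD11c+ SiglecF+, and the number of mice behind each library is not given in the sources used here. Replicates are separate samples by their labels, which do not say that they came from separate mice, so p-values measure the spread between these samples only.

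Each ribosome holds a single copy of nearly every ribosomal protein, and the cell makes them in step with ribosomal RNA. Their mRNAs belong to the TOP class (5′ terminal oligopyrimidine), which begins with a C followed by a run of pyrimidines. Through this run LARP1 and the mTORC1 kinase control how heavily the mRNA is translated. Small subunit proteins assemble around the decoding site for mRNA, and large subunit proteins around the site where peptide bonds are made. A few ribosomal proteins also act outside the ribosome, and a few have paralogs that are found in muscle or testis. Mammalian genomes carry many processed pseudogenes of these genes, whose sequences are almost the same as the mRNA, so short reads can be assigned to either.

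Start sequences were available from RefSeq for 63 of the 82 members on build GRCm38.p6. The 9 shown here are the windows of the members on which the results below turn, including like-named genes that were called differently. Each holds 30 bases of the coding strand, 15 before the annotated start and 15 from it, with the longest run of C and T in capitals.
Rps9: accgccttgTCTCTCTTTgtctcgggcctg
Rps6: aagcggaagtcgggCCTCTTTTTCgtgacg
Rps3a1: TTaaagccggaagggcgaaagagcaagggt
Rps27: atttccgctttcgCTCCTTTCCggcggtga
Rps27rt: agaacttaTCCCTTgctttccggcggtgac
Rpl7a: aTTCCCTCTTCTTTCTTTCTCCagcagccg
Rpl22l1: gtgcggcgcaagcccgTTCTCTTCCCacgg
Rpl7l1: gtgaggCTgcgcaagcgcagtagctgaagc
Rps19bp1: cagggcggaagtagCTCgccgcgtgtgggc
The run was 21 bases long in Rpl7a (chr2:26910792-26910821, plus strand) and 10 in Rps6 (chr4:86857353-86857382, minus strand). It was also 10 bases long in Rpl22l1 (chr3:28805493-28805522, plus strand). Rps9 (chr7:3704026-3704055, plus strand) and Rps27 (chr3:90213634-90213663, minus strand) each had a run of 9. In Rps27rt (chr9:114982725-114982754, minus strand) it was 6, and the windows of Rps27 and Rps27rt shared 14 bases in a row. Rps19bp1 (chr15:80264292-80264321, minus strand), which encodes a partner of Rps19 and not a ribosomal protein, had a run of 3. Rpl7l1 (chr17:46782642-46782671, minus strand) and Rps3a1 (chr3:86142654-86142683, minus strand) had runs of 2.

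Within 50 bases either side of the start, 82.5% of the 63 matched members held a run of at least 8 C or T bases, against 39.3% of 27025 genes with a RefSeq window. The letters CTTTC lay on the coding strand of the 30-base window in 27.0% of members and 4.76% of all these genes. CGGAAG, searched on both strands of the 300 bases from 250 before to 50 after the start, was found in 66.7% and 18.8%. These are counts of letters, and a match is not evidence that the site is used. Of 51 tested members with a long run, 29 rose and none fell, with a median log2 fold change of 0.10. Of 10 tested members without one, 5 rose and 1 fell, with a median of 0.09. Over all tested members 58.8% rose, and over all tested genes 29.0% rose and 24.8% fell, so the share with a long run was close to that of the members as a whole.

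Most ribosomal protein genes were slightly higher in the AM libraries of tumor-bearing mice. These libraries also held more RNA of marker genes of several other cell types, as given below. The part of that difference in the rise was not tested. With edgeR's quasi-likelihood test and Benjamini-Hochberg adjustment over all tested genes, 47 of 80 tested members rose at an adjusted p under 0.05, 1 fell and 32 were not called. Of all tested genes, 29.0% rose and 24.8% fell. The rises were small, with a median of 13.2% and a range from 4.73% to 147% over the 47 genes, and 14 of them reached 1.2-fold. The median log2 fold change was 0.11 over the members and 0.02 over all tested genes. Both tumor libraries lay above both control libraries in 54 of 80 members, against 39.3% of all tested genes, and below them in 5, against 35.8%. With 2 libraries in each group, an exact permutation test of a single gene could not go below p = 0.333, and the calls rely on the spread that the model shares across genes. That shared spread was small, with a coefficient of variation of 0.0303 between libraries of a group. Whether it covers the spread between separate mice cannot be told from the labels.

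The ribosomal protein genes are abundant, which makes small changes easier to call, so they were also set beside other abundant genes. At a mean of at least 100 CPM (counts per 1000000 counts of a library after scaling), 40 of 59 members rose and none fell. Of 2151 other genes at that level, 29.4% rose and 52.0% fell, and their median log2 fold change was -0.10 against 0.11 for the members. The members are also shorter, with a median gene model of 1737 bases against 3931 for all other tested genes. Removing the trend of each library on gene length by ordinary loess turned the members' median to -0.03, with 21 higher and 26 lower. In that fit 28.0% of all tested genes were higher and 27.7% lower, with a median of -0.015. With robust loess, which gives less weight to genes with extreme changes, the members' median was 0.09, with 40 higher and 4 lower. In that second fit 29.0% of all tested genes were higher and 24.8% lower.

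**Figure D1:**
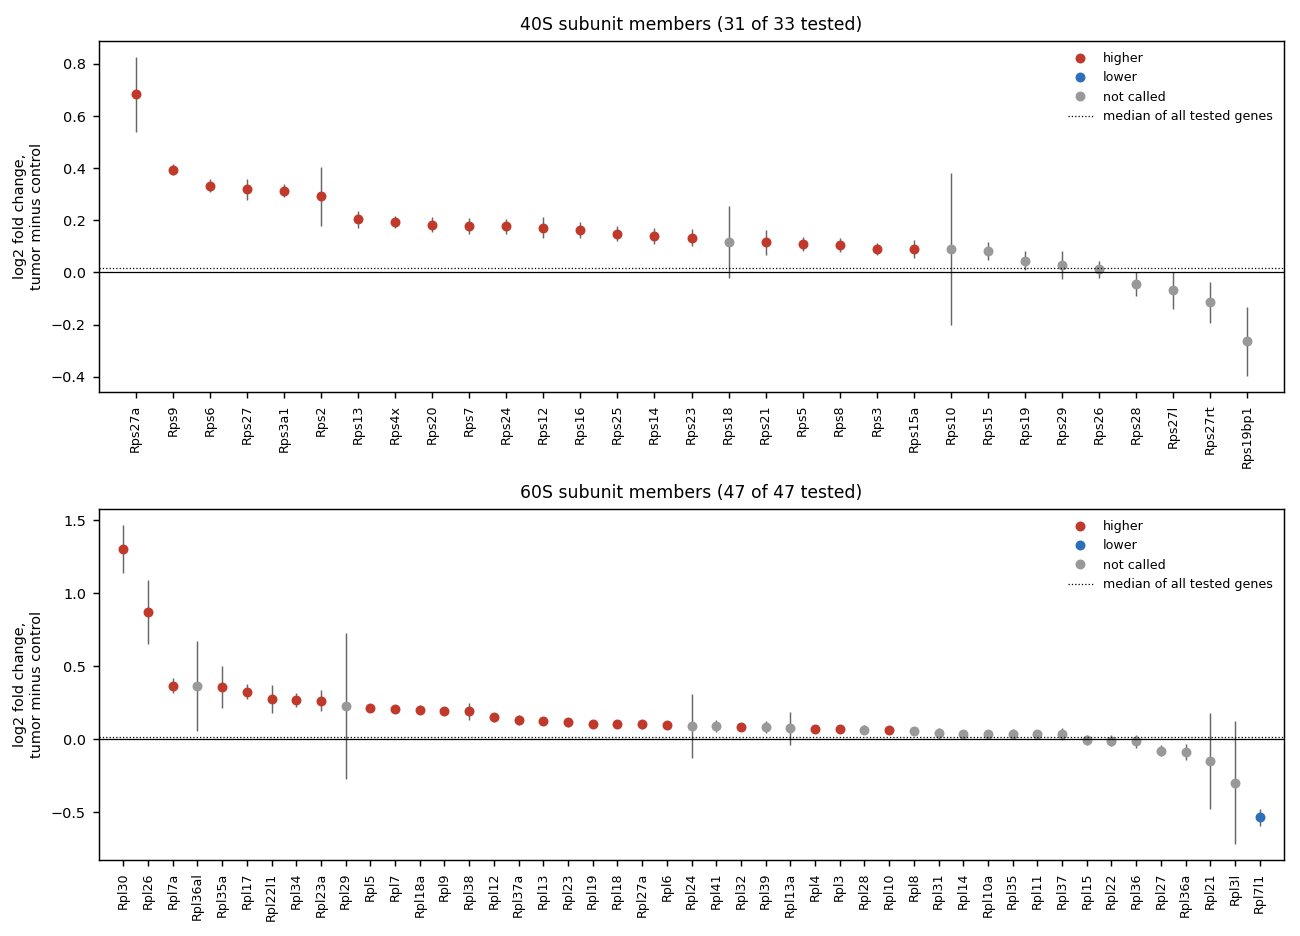
Log2 fold change (tumor minus control) of tested members, sorted within the 40S subunit (upper, 31 of 33 drawn) and the 60S subunit (lower, n = 47), from 2 control and 2 tumor libraries. Points are fitted values with the standard error as a line, red where called higher, blue where called lower and grey where not called, and the dotted line is the median of all tested genes (0.02). Most points lie just above 0, Rpl30 and Rpl26 stand far above, and Rpl7l1 is the only one called lower.

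The share of all counts that fell in the members was 1.89% and 1.93% in controls and 2.21% and 2.20% in tumor libraries, or 1.91% ± 0.0271 and 2.20% ± 0.00956 (SD, n = 2 each). The groups did not overlap. The 40S rows held 0.809% ± 0.00545 of counts in controls and 0.964% ± 0.00723 in tumor libraries, a ratio of 1.19. The 60S rows held 1.10% ± 0.0216 and 1.24% ± 0.00233, a ratio of 1.13. These shares are of raw totals, and after TMM scaling the ratio of the summed CPM was 1.14 for the 40S rows and 1.10 for all members, and the 60S rows summed to 11127 and 11438 CPM in controls and 12151 and 12113 CPM in tumor libraries. Thus the number of 60S counts per 40S count was 1.35 and 1.37 in the controls and 1.28 and 1.29 in the tumor libraries. In bulk samples fewer cells of a type and less RNA per cell cannot be told apart, and this holds for every value here.

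**Figure D2:**
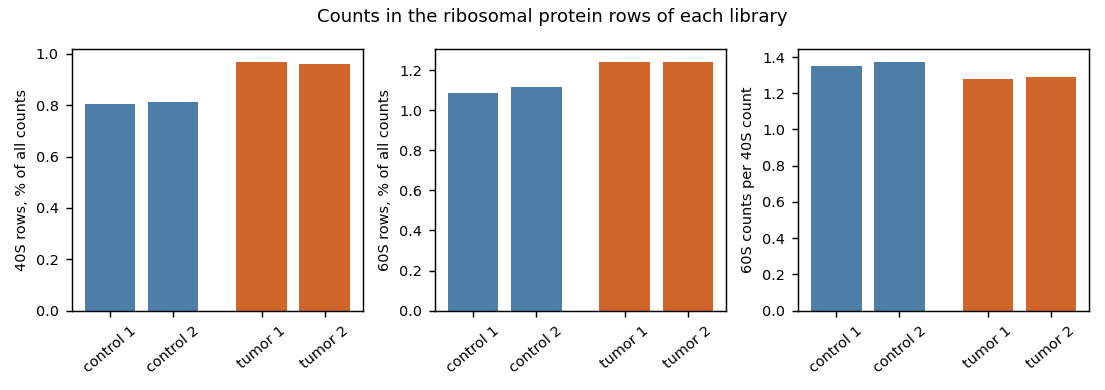
Share of all counts in the 40S rows and in the 60S rows (percent) and the number of 60S counts per 40S count, with 1 bar for each of the 4 libraries. Both shares are higher in the tumor libraries, and the ratio is lower there (1.28 and 1.29 against 1.35 and 1.37).

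In the small subunit 22 of 33 tested members rose and none fell, beside 29.0% higher and 24.8% lower among all tested genes. The median log2 fold change was 0.13. Rps9, whose protein sits near the mRNA entry side of the 40S subunit, had 616 and 632 CPM in the controls and 822 and 818 CPM in the tumor libraries. The groups stood apart by more than the spread within either (log2 fold change 0.39 ± 0.02 SE, adjusted p = 9.38e-15). The gene spans chr7:3703993-3706897 on GRCm38, and its own row held between 99.8% and 99.9% of the counts of Rps9 and its near-identical row. Rps6, the protein phosphorylated by the S6 kinases, had 438 and 434 CPM in controls and 549 and 550 CPM in tumor libraries. Its log2 fold change was 0.33 ± 0.02 (adjusted p = 2.98e-12), and 0.14 with ordinary loess on length, where it was still called higher.

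Rps3a1 had the highest level per length of all members, at 505 CPM per kilobase of gene model over the 4 libraries. Its CPM was 432 and 447 in controls and 550 and 543 in tumor libraries, a log2 fold change of 0.31 ± 0.03 (adjusted p = 2.29e-11). The own row of Rps3a1 held between 72.3% and 78.1% of the reads of its near-identical group. The sum of these rows gave 0.22, and ordinary loess on length gave 0.14, both called higher. High levels per length were also found for Rpl4 at 490, Rps15 at 481 and Rps4x at 417 CPM per kilobase. By the length of the principal transcript in place of the gene model, Rpl10 at 990 and Rps9 at 962 CPM per kilobase led instead, so the order of levels depended on the length used. Rps4x, encoded on chromosome X, had 641 and 629 CPM in controls against 732 and 720 CPM in tumor libraries (log2 fold change 0.19 ± 0.02, adjusted p = 3.80e-08), a call that ordinary loess on length ended (0.0018, adjusted p = 0.956). Rps15 had 280 and 309 against 310 and 312 CPM and was not called (0.08 ± 0.03, adjusted p = 0.0517). Its value was 0.0096 without control replicate 1 and 0.15 without control replicate 2, where it was called higher (edgeR adjusted p = 0.000312), as it was without tumor replicate 1, with a replicate block and with either pseudogene sum.

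Not all small subunit genes moved together. Rps26, Rps28 and Rps29 had log2 fold changes between -0.04 and 0.03 and were not called, and ordinary loess on length called Rps26 and Rps28 lower. The own row of Rps29 held between 55.7% and 59.9% of the reads of its near-identical group, and the sum of these rows was called higher (0.10 ± 0.04, adjusted p = 0.038). Rps21 was called higher although its groups overlapped, with 120 and 131 CPM in controls and 142 and 130 CPM in tumor libraries (log2 fold change 0.12, adjusted p = 0.0393). This call was lost without control replicate 1, without tumor replicate 1, with DESeq2's Wald test, limma-voom, a replicate block or either loess on length, and without a filter on low counts.

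In the large subunit 25 of 47 tested members rose, 1 fell and 21 were not called, with a median log2 fold change of 0.09. Among all tested genes 29.0% rose and 24.8% fell. Rpl7a (chr2:26910764-26913318 on GRCm38) had 121 and 136 CPM in controls and 154 and 177 CPM in tumor libraries, with no overlap (log2 fold change 0.37 ± 0.05, adjusted p = 9.64e-07). Rpl5 had 541 and 522 against 622 and 613 CPM (0.22 ± 0.02, adjusted p = 1.98e-08). Rpl7 had 586 and 595 against 685 and 676 CPM (0.21 ± 0.02, adjusted p = 1.45e-08).

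The large subunit mRNAs with the highest CPM, Rpl4 and Rpl10, were among the smallest rises that were called. Rpl4 had 942 and 977 CPM in controls and 1017 and 1001 CPM in tumor libraries, a log2 fold change of 0.07 ± 0.02 (adjusted p = 0.00545). It was not called without control replicate 1 (0.05, edgeR adjusted p = 0.141), without a filter on low counts or with robust loess on length (0.05, adjusted p = 0.0568), and with ordinary loess it was called lower (-0.10, adjusted p = 0.000276). Rpl10, whose protein lies close to the site of peptide bond formation, had 767 and 778 against 806 and 811 CPM (0.07 ± 0.02, adjusted p = 0.0105). It was not called without control replicate 1 (0.06, edgeR adjusted p = 0.0829), without a filter on low counts, or with robust loess on length (0.04, adjusted p = 0.106), and ordinary loess called it lower (-0.10, adjusted p = 0.000186). Rpl23a was called higher with overlapping groups, at 164 and 128 CPM in controls and 159 and 192 CPM in tumor libraries (0.27 ± 0.07, adjusted p = 0.00256), and this call was lost without control replicate 2, with DESeq2's Wald test and with ordinary loess on length.

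**Figure D3:**
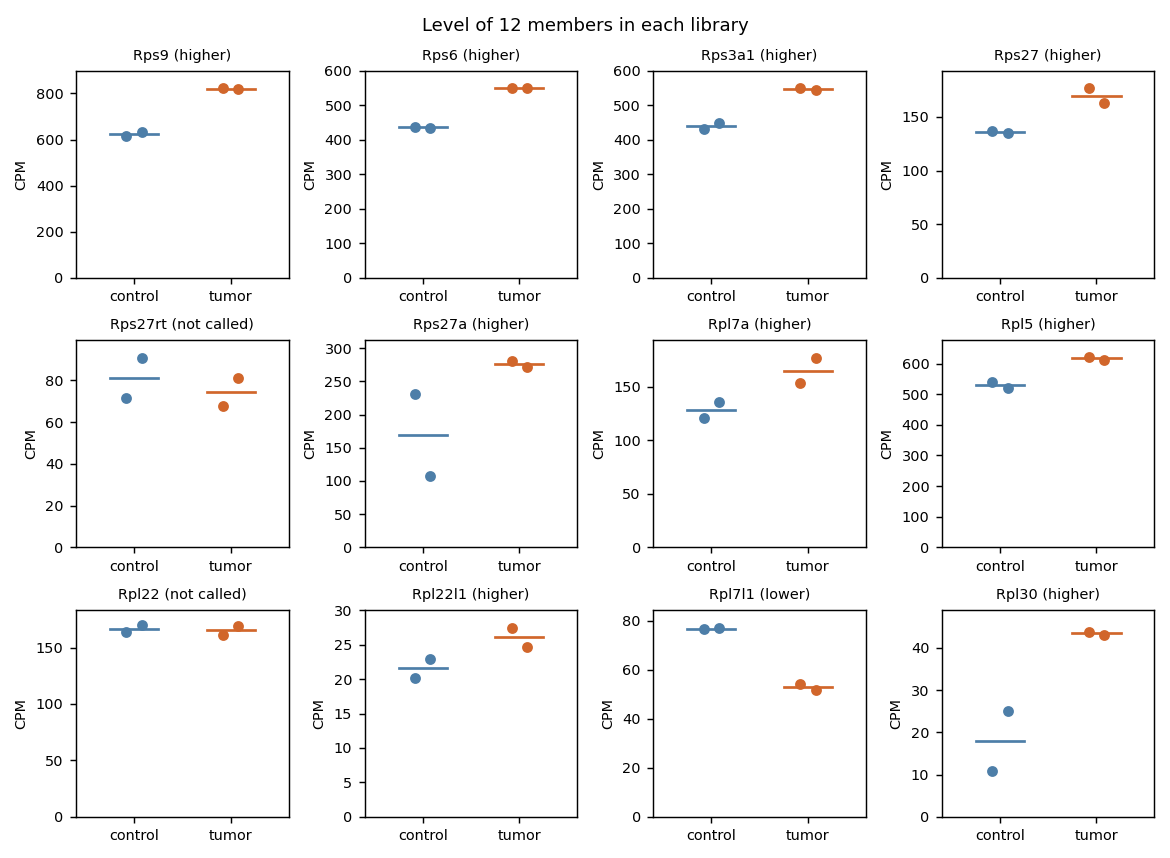
Level in CPM (linear axes from 0) of 12 members in each library, with points for the 2 control and 2 tumor libraries and a line at each group's mean. Rps9, Rps6, Rps3a1 and Rpl5 have tight groups that stand apart, Rpl22 and Rps27rt overlap, Rpl7l1 is lower in tumor libraries, and the 2 control points of Rps27a and Rpl30 lie far from each other.

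The 3 largest fold changes, those of Rpl30, Rpl26 and Rps27a, came from rows with uneven controls or few reads. Rpl30, a large subunit protein that in yeast binds its own transcript, had 10.9 and 25.03 CPM in the controls and 43.8 and 43.1 CPM in the tumor libraries (log2 fold change 1.31 ± 0.17, adjusted p = 1.31e-07). The 2 controls differed from each other by 2.30-fold and the 2 tumor libraries by 1.02-fold. Leaving out control replicate 1 gave 0.80 and leaving out control replicate 2 gave 1.99. Rps27a, which encodes ubiquitin fused to a 40S protein, had 231 and 107 CPM in controls and 280 and 271 CPM in tumor libraries (0.68 ± 0.14, adjusted p = 0.000221). Its 2 controls differed by 2.15-fold, and the value was 1.36 without control replicate 1 and 0.25 without control replicate 2. DESeq2's Wald test called neither Rpl30 (adjusted p = 0.0561) nor Rps27a (adjusted p = 0.3). Among 67 members with a mean of at least 500 counts, the median ratio between replicates was 1.03 in each group, and 4 had control replicates more than 1.2-fold apart.

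Near-identical rows held many of the reads of some members. Such rows matched at 95% identity or more, over a stretch of transcript at least 80% as long as the member's coding sequence. The stretch could include untranslated bases. At this setting 75 members had at least 1 such row, and 551 such rows lay outside the members. For Rpl26 the member row held between 0.711% and 1.36% of the reads of this group. A single processed pseudogene, Gm15772, held 6418 and 5340 counts in controls and 6352 and 7283 counts in tumor libraries, against 46 and 47, then 88 and 95, in the Rpl26 row. The log2 fold change of Rpl26 was 0.87 ± 0.22 in its own row (adjusted p = 0.0013) and 0.13 ± 0.03 once the rows were added together (adjusted p = 0.000197). With only the rows named as its pseudogenes added, it was 0.42 and not called (adjusted p = 0.0625).

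For Rpl30 the pseudogene Gm12191, at 99.7% identity, held 2902 and 2379 counts in controls and 2776 and 3158 in tumor libraries. Adding the near-identical rows of Rpl30 gave 168 and 178 CPM in controls and 207 and 208 CPM in tumor libraries, and the log2 fold change went from 1.31 to 0.26 ± 0.04 (adjusted p = 2.25e-07). After the same sum Rpl7a fell to 0.21 ± 0.04 and was still called higher (adjusted p = 8.16e-05), and Rps27a was at 0.67. Rps2, of whose reads between 4.40% and 5.85% lay in its own row, went from 0.29 (called higher) to 0.00 (not called, adjusted p = 0.931), and the call in its own row was also lost without control replicate 1, control replicate 2 or tumor replicate 2. Rps10 went the other way, from 0.09 (not called) to 0.28 ± 0.06 (adjusted p = 9.22e-05), and Rpl21 from -0.15 to 0.11, neither called. Over all members the sum gave 55 higher and 1 lower in place of 47 and 1, and 45 of the 47 were still called higher. In that fit 29.3% of all tested genes were called higher. Among the 36 tested members with at least 95% of these reads in their own row, 20 rose and 1 fell, with a median of 0.09. The share that rose was 55.6%, beside 58.8% of all tested members. Among all tested genes 29.0% rose and 24.8% fell.

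**Figure D4:**
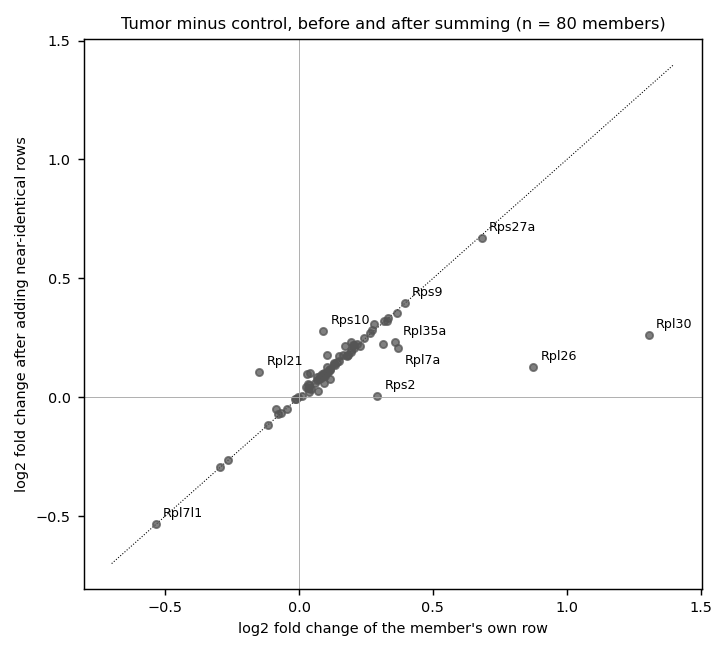
Log2 fold change (tumor minus control) of 80 tested members in their own row (horizontal axis) and after counts of near-identical rows were added (vertical axis), 1 point a member, with the dotted line where both are equal. Most members lie on the line, while Rpl30 (1.31 to 0.26), Rpl26 (0.87 to 0.13) and Rps2 (0.29 to 0.00) lie well under it.

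Paralogs and like-named genes were described apart. Of 8 tested genes of this list, 1 rose, 2 fell and 5 were not called, with a median log2 fold change of -0.19, beside 29.0% higher and 24.8% lower among all tested genes. Of the 73 members outside the list 46 rose and none fell, and the difference between the list and these members was not tested. Rpl7l1, a relative of Rpl7 whose yeast counterpart works in the assembly of the large subunit, was the only member that fell. It had 76.4 and 76.9 CPM in controls and 54.0 and 51.8 CPM in tumor libraries, with no overlap (log2 fold change -0.54 ± 0.06, adjusted p = 4.44e-09). Rps4l, an expressed processed pseudogene and thus outside the name rule, fell as well, from 24.0 and 22.3 to 16.1 and 17.6 CPM (-0.46 ± 0.10, adjusted p = 0.000384). Scaled on AM marker genes in place of TMM, Rpl7l1 was at -0.04 and Rps4l at 0.04, neither called.

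Rpl22l1 rose where its paralog Rpl22 was not called. Rpl22, an RNA-binding protein that in mice holds down the Rpl22l1 mRNA, had 164 and 170 CPM in controls and 161 and 169 CPM in tumor libraries (log2 fold change -0.01 ± 0.04, adjusted p = 0.828), and was called lower with ordinary loess on length (-0.11, adjusted p = 0.0159). Rpl22l1 had 20.2 and 22.9 CPM in controls and 27.5 and 24.7 CPM in tumor libraries (0.28 ± 0.10, adjusted p = 0.0166). The Rpl22l1 call was lost without control replicate 1 (0.18, edgeR adjusted p = 0.222) and without tumor replicate 1 (0.20, adjusted p = 0.116), and also with DESeq2's Wald test (adjusted p = 0.111) and ordinary loess on length (0.11, adjusted p = 0.372). The difference between the 2 paralogs was not tested.

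Rps27 and its retrogene copy Rps27rt share a fully identical stretch of 341 bases, so their reads cannot be told apart with certainty. Rps27 had 137 and 135 CPM in controls and 177 and 163 CPM in tumor libraries (log2 fold change 0.32 ± 0.04, adjusted p = 1.49e-07). Rps27rt had 71.8 and 90.8 against 67.7 and 81.3 CPM, with overlapping groups, and was not called (-0.11 ± 0.08, adjusted p = 0.224). Without control replicate 1 it was at -0.28 and without tumor replicate 2 at -0.26, both called lower, and without control replicate 2 it was at 0.05. It was also called lower with a replicate block and with robust loess on length. Summed, the pair had 209 and 226 CPM in controls and 245 and 244 CPM in tumor libraries. The third member of this family, Rps27l, a p53 target, had 45.2 and 44.0 against 40.5 and 44.5 CPM and was not called (-0.07 ± 0.07), except as lower with ordinary loess on length (-0.22, adjusted p = 0.0108).

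Rps19bp1 had 13.1 and 12.7 CPM in controls and 9.70 and 11.7 CPM in tumor libraries (-0.26 ± 0.13, adjusted p = 0.0959), and was not called. It was called lower without tumor replicate 2 (-0.41, edgeR adjusted p = 0.0189) and with ordinary loess on length (-0.45, adjusted p = 0.0052). Rpl36al stayed under 2.2 CPM in all libraries and its parent Rpl36a was between 81.0 and 94.9 CPM, neither called. Rpl36a was called lower without control replicate 1 (-0.15, edgeR adjusted p = 0.0481), without tumor replicate 2 (-0.16, adjusted p = 0.0117) and with ordinary loess on length (-0.28, adjusted p = 4.7e-05). Rpl3l, known from heart and skeletal muscle, was at 0.693 to 1.33 CPM and not called. The testis paralogs were at or near the limit of detection. Rpl39l had 3 and 0 counts in controls and 4 and 13 counts in tumor libraries and was not tested, and Rpl10l had 0 counts in every library, which allows up to 3 counts per library.

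Of the members with a known role outside the ribosome, 9 of 13 rose and none fell, with a median log2 fold change of 0.14, beside 58.8% higher among all tested members and 29.0% among all tested genes. Rpl5 and Rpl11 form a particle with 5S ribosomal RNA that binds Mdm2 and so stabilizes p53. Rpl5 rose, while Rpl11 had 306 and 306 CPM in controls and 317 and 310 CPM in tumor libraries and was not called (0.03 ± 0.03, adjusted p = 0.325). Rpl11 was called lower with ordinary loess on length (-0.08, adjusted p = 0.0264) and higher with total counts as library sizes. Rpl13a, part of a complex that silences inflammatory mRNAs in interferon-treated macrophages, had 15.3 and 16.4 against 15.6 and 17.7 CPM (0.08 ± 0.11, adjusted p = 0.594). Rps3, which also joins NF-kB complexes, had 582 and 591 against 622 and 628 CPM (0.09 ± 0.02, adjusted p = 0.00156). Rpl38, known for translation of Hox mRNAs, had 54.2 and 55.3 against 63.6 and 61.5 CPM (0.19 ± 0.06, adjusted p = 0.00771). Its call was lost without control replicate 1 (0.18, edgeR adjusted p = 0.0727), with DESeq2's Wald test (adjusted p = 0.0694), with ordinary loess on length (0.09, adjusted p = 0.196) and with robust loess (0.11, adjusted p = 0.128). Rps25, used by many viral internal ribosome entry sites, rose by 0.15 ± 0.03 on the log2 scale (adjusted p = 4.20e-05), a call that was lost with ordinary loess on length (0.04, adjusted p = 0.277). Rps14 and Rps19, whose human counterparts are lost in 5q- syndrome and mutated in Diamond-Blackfan anemia, were at 0.14 (called higher, but not with ordinary loess on length) and 0.05 (not called, but called higher without control replicate 2 and with total counts).

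Among cytosolic ribosomal protein genes with other names 3 of 7 rose and none fell, beside 29.0% higher and 24.8% lower among all tested genes. Rplp0, the base of the acidic stalk that recruits elongation factors, had 373 and 389 CPM in controls and 544 and 523 CPM in tumor libraries (log2 fold change 0.49 ± 0.03, adjusted p = 9.35e-15). The stalk proteins that attach to it were not called, Rplp1 at -0.04 ± 0.03 and Rplp2 at 0.06 ± 0.03. Rplp1 was called lower without control replicate 1 (-0.08, edgeR adjusted p = 0.0195) and with either loess on length, and Rplp2 was called lower with ordinary loess (-0.11, adjusted p = 0.00395) and higher with total counts or with at least 10 counts in every library. Rpsa rose by 0.18 ± 0.02 and Fau, which encodes Rps30, by 0.20 ± 0.03 on the log2 scale, though ordinary loess on length ended the call of Fau. Rack1, a scaffold on the head of the 40S subunit, had 752 and 776 against 773 and 771 CPM (0.02 ± 0.02, adjusted p = 0.593), and was called higher with total counts as library sizes.

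Genes for building ribosomes were mostly lower. Of 53 nucleolar ribosome assembly factors 37 fell and 1 rose, with a median log2 fold change of -0.29, where 24.8% of all tested genes fell and 29.0% rose. Together they held 0.323% ± 0.00181 of counts in controls and 0.269% ± 0.000543 in tumor libraries (SD, n = 2 each). Tsr1, which acts on the maturing 40S subunit, fell most, from 42.4 and 38.7 CPM to 18.5 and 15.8 CPM (-1.25 ± 0.09, adjusted p = 2.83e-12). Rrs1 and Nop2, both needed for the large subunit, fell by 1.05 and 0.91 on the log2 scale, and the box C/D snoRNP proteins Nop58 and Nop56 by 0.63 and 0.38. The exception was Rrp1b, which rose from 14.1 and 15.02 CPM to 25.6 and 26.0 CPM (0.83 ± 0.10). Scaled on AM marker genes, 31 of these factors were called higher and 9 lower. Under that scaling 69.8% of all tested genes were higher and 5.06% lower, and the median of all genes was 0.51.

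Of 14 genes of RNA polymerase I, which transcribes ribosomal RNA, and its factors, 7 fell and 3 rose, beside 24.8% lower and 29.0% higher among all tested genes. Taf1a of its promoter selectivity factor fell by 0.94 ± 0.19 on the log2 scale, and the initiation factor Rrn3 by 0.52, while Taf1c rose by 0.40 ± 0.14, a call that was lost without control replicate 1 (0.32, edgeR adjusted p = 0.178) and with DESeq2's Wald test. Mitochondrial ribosomal protein genes, which encode a separate ribosome, were mostly not called. Of 77 tested, 13 fell, 5 rose and 59 were not called, with a median of -0.09 and between 0.137% and 0.142% of counts in every library. Scaled on AM marker genes 58 were called higher and 0 lower (median 0.40), where 69.8% of all tested genes were higher and 5.06% lower. With ordinary loess on length 3 were higher and 28 lower, where 28.0% of all tested genes were higher and 27.7% lower.

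**Figure D5:**
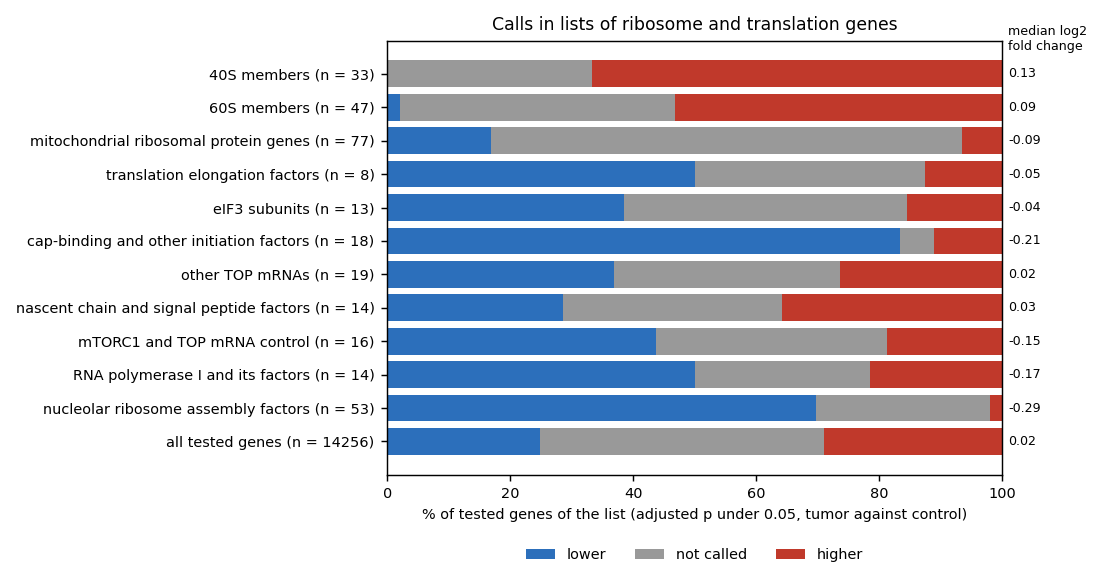
Share of tested genes in each list (percent) that were called lower (blue), not called (grey) or called higher (red) in tumor against control, with the number tested beside each name and the median log2 fold change at the right. The 40S and 60S members are the lists with the largest red shares among the 11 lists drawn, and the nucleolar assembly factors and the initiation factors are mostly blue.

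In the lists of translation factors more genes fell than rose, where 24.8% of all tested genes fell and 29.0% rose. Of 18 cap-binding and other initiation factors 15 fell and 2 rose, with a median of -0.21. Scaling on AM marker genes gave 3 lower and 12 higher, where 5.06% of all tested genes were lower and 69.8% higher. Eif4e, the cap-binding protein, fell from 96.3 and 94.5 CPM to 52.4 and 50.1 CPM (log2 fold change -0.90 ± 0.05, adjusted p = 2.63e-14). Of the eIF4A helicase genes Eif4a1 fell by 0.55 on the log2 scale, while Eif4a2 rose by 0.65 ± 0.03, from 272 and 279 to 429 and 433 CPM. Among 13 eIF3 subunits 5 fell, led by Eif3a at -0.61 ± 0.03, and 2 rose, Eif3h at 0.30 ± 0.03 and Eif3f at 0.27. Of 8 elongation factors and related genes 4 fell and 1, Tpt1, rose (0.15 ± 0.02), but not with ordinary loess on length.

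Other mRNAs of the TOP class gave no common direction. Of 19 such genes that are not ribosomal proteins by the name rule, 5 rose and 7 fell, and their median was 0.02. In the mTORC1 and TOP control list 3 of 16 rose and 7 fell, against 29.0% and 24.8% of all tested genes. Myc, a transcription factor for ribosome genes, rose from 25.7 and 24.3 CPM to 51.9 and 49.4 CPM (1.02 ± 0.08, adjusted p = 4.71e-12). Eif4ebp1 and Eif4ebp2, which hold eIF4E inactive, rose by 0.56 and 0.53, while Larp1 fell by 0.54 and the S6 kinase gene Rps6kb1 by 0.70 ± 0.06 on the log2 scale.

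Marker genes of several other cell types were much higher in the tumor libraries. All 14 AM identity genes were present in every library, with summed levels of 16160 to 16306 CPM in controls and 11862 to 11998 CPM in tumor libraries, and 13 of the 14 fell. All 10 neutrophil markers rose, from summed levels of 9.87 to 10.01 CPM to levels of 3752 to 3794 CPM, with Elane at 0 in both controls. All 5 eosinophil markers rose, from at most 0.640 CPM to at least 2629 CPM, and all 6 basophil and mast cell markers from at most 2.29 to at least 523 CPM, with Fcer1a, Mcpt8 and Ms4a2 at 0 in both controls. Of 8 hepatocyte markers 7 rose, from summed levels of 142 to 143 CPM to levels of 764 to 765 CPM, with 6 at 0 in both controls. Smaller rises were found for the lists of dendritic cells (14.0 to 15.1 CPM in controls, 44.1 to 45.1 CPM in tumor libraries, 4 of 8 markers higher and 1 lower), B and plasma cells (at most 22.9 against at least 41.7 CPM, 5 of 6 higher and 1 lower) and endothelium and fibroblasts (3.87 to 5.12 against 25.9 to 28.1 CPM, 5 of 6 higher). T cell, NK cell and erythroid markers summed to at most 6.21 CPM in controls and at most 16.7 CPM in tumor libraries, with 3 of 6, 2 of 2 and 3 of 3 tested markers higher and none lower. A pair of lists went mostly the other way. Of 8 markers of monocytes and interstitial macrophages 5 fell and 2 rose, with summed levels of 130 to 138 CPM in controls and 103 to 107 CPM in tumor libraries, and of 7 markers of alveolar and airway epithelium 4 fell and 2 rose, with 132 to 134 against 69.9 to 72.4 CPM. Neutrophils and eosinophils carry CD11b. The study gives its CD11b- definition for AMs isolated for staining and does not state it for the cells sent for sequencing. The marker lists changed in the same libraries as the ribosomal protein genes, and their part in the ribosomal protein results was not tested. Scaled on the AM markers, 74 of 80 members were called higher and none lower, with a median log2 fold change of 0.60 against 0.51 for all genes.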

How the data were processed

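Gene-level data of 4 bulk RNA-seq libraries were used, grouped by their titles. RNA was extracted by the authors with TRIzol and made into libraries with a NEBNext Ultra kit. Per their methods, paired-end reads were aligned by HISAT2 2.0.5 and assigned to genes by featureCounts. What they deposited is raw counts, with totals from 16167147 to 19205737 per library. The strand setting and the handling of multi-mapped reads are not given in the sources used here, so counts of overlapping genes and pseudogene copies may be split. Intervals cover the spread between libraries, and reads carried no molecular identifiers.

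Counts were filtered by filterByExpr (minimum count 10), scaled by TMM (factors 0.977 to 1.02) and tested with edgeR 4.0.16 in R 4.3.3 (glmQLFit, glmQLFTest, group alone, 2 residual degrees of freedom), with Benjamini-Hochberg adjustment over 14256 genes and a threshold of 0.05. CPM values are counts per 1000000 of the TMM-scaled library size. The SE of a log2 fold change was obtained as its size over the root of the F statistic. DESeq2 1.42.0 and limma 3.58.1 gave alternatives. The fit was tested on simulated data. Coordinates are from GENCODE release 21 of the mouse (GRCm38), in which 54409 table identifiers and 80 members with identical coordinates were found. Near-identical rows were found with blastn 2.17.0 against its transcripts. Start windows come from RefSeq (GRCm38.p6).

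Members and gene lists were chosen with earlier results of these data known. Members named with values are the 6 highest and 6 lowest fold changes, the 5 highest levels per length and the paralog, extra-ribosomal and other-name lists, with the largest and smallest called change of each other list. Further genes (Rps2, Rps10, Rps21, Rps26, Rps28, Rps29, Rpl7, Rpl23a, Rrs1, Nop2, Nop56, Nop58, Rrn3, Eif4a1, Eif3f, Eif4ebp1, Eif4ebp2, Larp1) were chosen after their values were seen. A few items are not reported here.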

Additional observations from a re-analysis of the deposited data

How the results depend on the processing

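With edgeR's quasi-likelihood test 47 members rose and 1 fell. Their median log2 fold change was 0.11, and their share of counts differed by 0.294 percentage points. Members called higher numbered 47 with DESeq2 size factors, 61 with total counts, 48 with TMM factors set without ribosomal protein genes or with limma-voom, 36 with DESeq2's Wald test, 39 without a filter or at an adjusted p under 0.01, and 52 with at least 10 counts in every library or in protein-coding genes alone. Adding named pseudogene rows gave 50 and adding near-identical rows 55. At least 1.2-fold was reached by 14. Members called lower were 2 without a filter, 4 with robust loess on length, and 26 with ordinary loess, which also left 21 higher and a median of -0.033. Scaling on AM markers gave 74 higher, 0 lower and a median of 0.60, with the median of all genes at 0.51 and 93.2% of calls higher in place of 53.9%. Total counts gave a median of 0.17, with 62.7% of calls higher. The share difference was 0.317 points with named pseudogene rows and 0.342 with near-identical rows. The robust loess and the near-identical rows were chosen after seeing the data. Leaving out 1 library gave 34 to 48 members higher, 1 to 5 lower, medians of 0.08 to 0.13, share differences of 0.275 to 0.313 points and 6502 to 7387 genes called in all. Without control replicate 1, Rpl27, Rpl36a, Rpl7l1 and Rps27rt were called lower, and without tumor replicate 2 Rps19bp1 as well, 5 in all. A replicate block gave 47 higher and 3 lower (Rpl27, Rpl7l1 and Rps27rt). The samples share only a number, and deviations of same-numbered samples correlated at -0.003 across genes.

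Of 989 values of 55 named genes under the alternatives, 890 kept their direction and side of the threshold, 30 lost the call, 36 gained one and 33 changed sign. Under AM marker scaling Rpl36a was at 0.41, Rps27rt 0.38, Rpl21 0.34, Rps19bp1 0.23, Rpl3l 0.19, Rps27l 0.42, Rps4l 0.037, Rpl22 0.48, Rplp1 0.46, Ipo7 0.12 and Dnajc2 0.29. With ordinary loess on length Rpl4 was at -0.10, Rps15 -0.039, Rpl11 -0.077, Rpl13a -0.088, Rpl10 -0.10, Rps14 -0.056 and Rplp2 -0.11. Total counts put Rpl22 at 0.056 and Rplp1 at 0.031. Rack1 was at -0.0014 without a filter, Rpl22 at 0.014 with at least 10 counts everywhere, and Rpl21 at 0.11 with either pseudogene sum. Leaving out 1 library in turn moved Rps27rt between -0.28 and 0.052, Rpl3l between -0.77 and 0.039, Rpl13a between -0.020 and 0.16, Rpl22 between -0.047 and 0.022, Rps19 between -0.013 and 0.098, Rplp1 between -0.083 and 0.0058 and Rack1 between -0.0075 and 0.033. The cause was not tested. Of the 47 members called higher DESeq2's Wald test did not call 11, among them Rpl30 (adjusted p = 0.0561), Rps27a (adjusted p = 0.3), Rpl22l1 and Rpl38. Low counts limit Rpl39l, Rpl10l, Rpl3l and Rpl36al. Of the exon bases of Rpl36al 24.5%, and of those of Rpl13a 35.4%, also lie in other genes on the same strand. The effect of this overlap on their counts was not tested. The own rows of Rpl21, Rpl29 and Rps10 also hold few counts, and near-identical rows hold more of their reads.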

Other observations

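Genes around the ribosome that handle new or stalled chains gave no common direction. Of 14 nascent chain and signal peptide factors 5 rose and 4 fell, with a median log2 fold change of 0.03, beside 29.0% higher and 24.8% lower among all tested genes. Sec61b, a subunit of the translocation channel, rose from 22.7 and 25.4 CPM to 32.1 and 29.7 CPM (0.36 ± 0.09, edgeR adjusted p = 0.00109), a call lost with ordinary loess on length, and Dnajc2, a ribosome-bound chaperone, fell by 0.20 ± 0.07 on the log2 scale (adjusted p = 0.0095), a call that was lost without control replicate 2 (-0.19, edgeR adjusted p = 0.0635), with total counts and with DESeq2's Wald test, and turned under AM marker scaling (0.29). Of 16 tested genes for ribosome quality control and stress 3 rose and 7 fell. Eif2ak3 (PERK) rose from 41.2 and 37.8 CPM to 71.4 and 69.7 CPM (0.83 ± 0.06), whereas Eif2ak2 (PKR) fell from 31.0 and 34.6 CPM to 20.3 and 20.03 CPM (-0.70 ± 0.09).

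Rows that carry a ribosomal protein name with the pseudogene mark were 298 in number, of which 67 were tested. Of these 21 rose and 3 fell (median log2 fold change 0.25), or 31.3% and 4.48%, beside 29.0% and 24.8% of all tested genes, so the share that rose was close to that of all genes. All named rows together held 0.143% ± 0.0019 of counts in controls and 0.166% ± 0.00223 in tumor libraries (SD, n = 2 each). Whether their reads come from the parent genes was not tested.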
